A study of Mus musculus with 2 samples.

Results

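Conventional and mature dendritic cells were chosen from 2 single-cell RNA libraries of mouse lung by the genes that each cell contained. A barcode was taken when it held at least 1 UMI (unique molecular identifier, 1 counted RNA molecule) of 2 or more of Flt3, Xcr1, Clec9a, Cd209a, Ccr7, Fscn1 and Ccl22, at least 1 UMI of H2-Ab1 or Cd74, and 0 UMIs of C1qa, Cd3e, Cd79a, Ly6c2, Cdh5 and Epcam, the last 6 being markers of macrophages, T cells, B cells, monocytes, endothelium and epithelium. In all, 369 of 45824 kept barcodes met the rule, 346 of 30187 in the Pclaf WT library and 23 of 15637 in the Pclaf KO library. A barcode was kept if its number of genes lay between 200 and 5000, both limits excluded, and mitochondrial genes gave under 20% of its UMIs. These measured values chose the cells, so the levels of the 7 genes of the rule, of H2-Ab1 and Cd74 and of the 6 excluded genes are given as descriptions only.

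Lungs came from mice of 8 to 10 weeks of age that had received bleomycin, at 1.35 U/kg per the deposited design, 1 week earlier. Bleomycin, a DNA-damaging drug, injures the lung and is a common model of lung repair and fibrosis. One library came from Pclaf WT mice and 1 from Pclaf KO mice of a previously established knockout model, in which the gene for PCNA-clamp-associated factor, a partner of the replication clamp, is knocked out. The number of mice behind each library is not given in the sources used here. The labels describe sorted epithelial cells, positive for EPCAM and negative for CD31 and CD45, whereas dendritic cells carry CD45 and lack EPCAM as a rule. Ptprc, which encodes CD45, was detected in 39.6% of the kept barcodes of the WT library (11954 cells) and in 3.30% of those of the KO library (516 cells), while barcodes with Epcam and without Ptprc or Cdh5 made up 1.95% and 40.3%. The share of dendritic cells in each library therefore cannot be told apart from how that sort ran.

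Dendritic cells take up antigen, carry it to lymph nodes and present it to T cells. Lung holds conventional dendritic cells of 2 lineages, cDC1, which depend on IRF8 and BATF3, cross-present antigen to CD8 T cells and carry XCR1 and CLEC9A, and cDC2, which depend largely on IRF4, prime CD4 T cells and carry SIRPA and, in many cells, CD209a. Either lineage can mature: such cells gain CCR7, the receptor that guides them to lymph nodes, and fascin (Fscn1), which bundles actin in dendrites, together with chemokines, costimulatory molecules and PD-L1.

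Pclaf itself was read first as a check of the labels. Over all kept barcodes the WT library held 3763 Pclaf UMIs (39.3 per 1000000 UMIs, written CPM from here on) and the KO library 529 (5.19 CPM). Over the dendritic cells the WT library held 309 Pclaf UMIs in 59 of 346 cells (161 CPM) and the KO library 5 in 2 of 23 cells (37.9 CPM). Pclaf follows the cell cycle, so its count was set against that of Mki67, the proliferation marker Ki-67, and came to 1.28 Pclaf UMIs per Mki67 UMI in WT and 0.333 in KO dendritic cells. Pclaf was thus lower in the library labelled KO in both sets of cells and was not at 0 there.

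The 7 genes of the rule lay on 5 mouse chromosomes (GRCm38, GENCODE vM21): Xcr1 at chr9:123852315-123862029, Clec9a at chr6:129408862-129424763, Flt3 at chr5:147330741-147400489, Fscn1 at chr5:142960343-142973185, Cd209a at chr8:3743397-3748984, Ccl22 at chr8:94745590-94751699 and Ccr7 at chr11:99144196-99155077. Pclaf lay at chr9:65890237-65903266.

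Dendritic cells made up 1.15% of kept barcodes in the WT library (95% exact binomial interval 1.03 to 1.27) and 0.147% in the KO library (0.0933 to 0.221), a difference of -0.999 percentage points. Against other leukocytes the order turned: of kept barcodes with Ptprc, 2.22% were dendritic cells with Ptprc in WT (265 of 11954, 1.96 to 2.497) and 3.29% in KO (17 of 516, 1.93 to 5.22). Gates are sets of cells chosen by 2 or more markers of 1 cell type, or by Epcam alone for epithelium, with 0 UMIs of main markers of the others. The exception was Ly6c2, which the macrophage gate did not require at 0. Of the dendritic cells together with gates for macrophages, monocytes, B cells and T cells, dendritic cells were 6.49% in WT and 7.32% in KO. The lower share of kept barcodes in KO thus stood beside a lower share of every leukocyte gate, with KO minus WT differences of -6.21 points for macrophages, -1.20 for monocytes, -5.22 for B cells and -2.02 for T cells. With 1 library per genotype no test between genotypes was possible, and every interval covers counting error only.

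Over all dendritic cells depth differed little between the genotypes. WT dendritic cells had a median of 5265 UMIs (501 to 17333) and 1930 genes, KO dendritic cells 5347 UMIs (519 to 18884) and 1815 genes, and the sums were 1922748 and 131877 UMIs. By subset the medians were 6429.5 UMIs in WT and 5966 in KO Xcr1/Clec9a cells, and 3397 in WT and 5296 in KO Ccr7/Fscn1 cells. The 2 matrices shared 163 barcodes, of which none was a dendritic cell in both. The 6 genes required at 0 turned away 633 WT and 24 KO cells that met the other conditions, 403 and 22 of them for 1 gene alone. At the edge of the 7 genes, 166 WT dendritic cells had exactly 2 of the 7 genes and 627 cells that met every other condition had 1. Of 11 further genes shared by conventional dendritic cells and not used by the rule (Zbtb46, Itgax, Ciita, Spi1, Bcl11a, Cbfa2t3, Kit, Jaml, Gpr183, Gpr132 and Dpp4), 3 or more were detected in 71.7% of the cells with 2 rule genes, in 92.2% of the 180 cells with 3 or more and in 28.9% of the cells with 1. The same share was 35.2% in the macrophage gate, 26.0% in the monocyte gate and 2.55% in the epithelial gate, at median depths of 4040, 3368 and 4994 UMIs.

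Each dendritic cell was placed by 3 marker sets, Xcr1 or Clec9a, Cd209a, and Ccr7 or Fscn1. In the WT library 156 cells (45.1%) had UMIs of Xcr1 or Clec9a alone, 55 (15.9%) of Cd209a alone and 102 (29.5%) of Ccr7 or Fscn1 alone. A further 31 WT cells (8.96%) held 2 sets, 9 of them Xcr1/Clec9a with Cd209a, 10 Xcr1/Clec9a with Ccr7/Fscn1 and 12 Cd209a with Ccr7/Fscn1, and 2 cells held none. The rule sets part of these shares. A Cd209a cell needed Flt3 or Ccl22 as well, whereas the other subsets could enter by their own 2 markers. With Epcam not used, the WT library had 210 Xcr1/Clec9a, 97 Cd209a and 115 Ccr7/Fscn1 cells. In the KO library 14 cells (60.9%, 38.5 to 80.3) were Xcr1/Clec9a cells, 7 (30.4%, 13.2 to 52.9) were Ccr7/Fscn1 cells, 2 held both Clec9a and Cd209a, and 0 of 23 held Cd209a alone, which allows a share of up to 14.8% by the exact interval (3 of 23 cells are 13.04%). The Xcr1/Clec9a share differed by 15.8 points and the Ccr7/Fscn1 share by 0.955 points between the libraries, within wide counting intervals. With at least 3 rule genes these differences were -2.22 and 7.22 points, and with 12 genes of other cells required at 0 they were 24.5 and -4.96. The Cd209a difference was -15.9 points, -2.22 with at least 3 rule genes, -8.55 with none of the 6 excluded genes used and 0.835 with all cells thinned to 1000 UMIs first, when 1 of 7 KO cells and 23 of 171 WT cells were Cd209a cells. The value with at least 3 rule genes was largely fixed by that setting. A Cd209a cell then had to hold Cd209a, Flt3 and Ccl22 together, which left 4 such cells in WT and 0 in KO. After that thinning the most frequent WT cells were the 73 Ccr7/Fscn1 cells and not the 62 Xcr1/Clec9a cells, and the KO library had 3 of each.

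**Figure D1:**
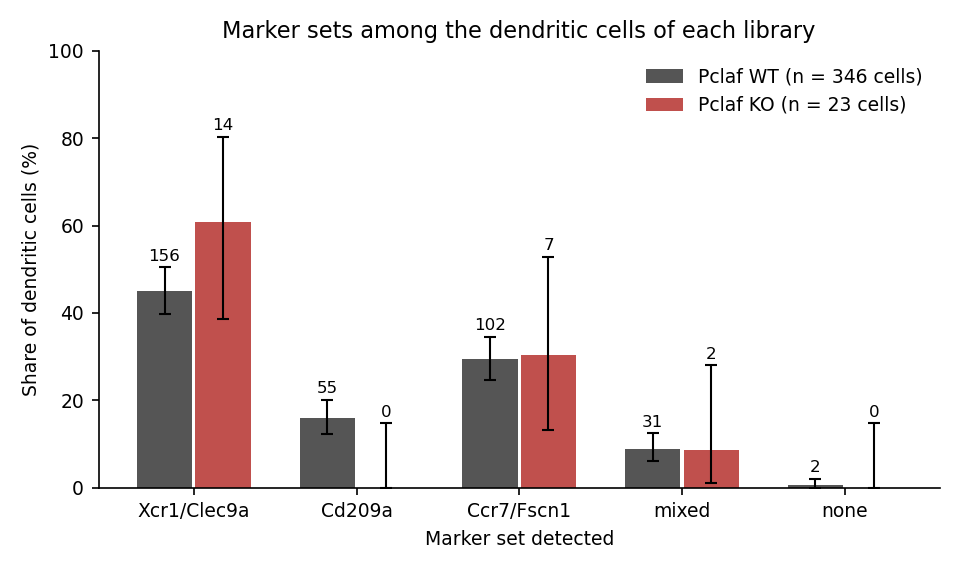
Share of the dendritic cells (y axis, %) with UMIs of 1 marker set only, of more than 1 set (mixed) or of none, in the Pclaf WT (grey) and Pclaf KO (red) libraries; numbers are cells and bars are exact 95% binomial intervals. Xcr1/Clec9a cells were the most frequent in both libraries (156 and 14 cells) before thinning, and the KO intervals, from 23 cells, are wide. A Cd209a cell needed Flt3 or Ccl22 as well, so the rule sets part of these shares.

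The 7 rule genes chose the cells, so their frequencies describe the subsets and are no finding. In WT Xcr1/Clec9a cells Xcr1 was detected in 85.3% and Clec9a in 90.4%, and both in 118 of 156 cells (75.6%). Xcr1, the receptor for XCL1, was found in 0.656% of the macrophage gate and 0.849% of the epithelial gate, and Clec9a, a receptor for the actin of dead cells, in 1.59% and 0.849%. Flt3, the receptor for the growth factor that dendritic cells depend on, was detected in 80.1% of Xcr1/Clec9a, 76.4% of Cd209a and 42.2% of Ccr7/Fscn1 cells in WT, and in 78.6% of Xcr1/Clec9a and 42.9% of Ccr7/Fscn1 cells in KO. The rule fixes part of this order, since a Cd209a cell needed Flt3 or Ccl22 as its other gene, whereas the other subsets could enter by their own 2 markers. The Ccr7/Fscn1 cells were also the shallowest, with a median of 3397 UMIs against 6429.5 in Xcr1/Clec9a and 6032 in Cd209a cells, and after thinning every cell to 1000 UMIs Flt3 was found in 25.0%, 25.5% and 18.8%. Summed Flt3 levels were 266, 198 and 302 CPM. Ccr7 and Fscn1 were both present in 67 of the 102 WT Ccr7/Fscn1 cells (65.7%) and in 4 of the 7 KO cells. Neither is confined to dendritic cells: Ccr7 was detected in 37.9% of the B cell gate and 27.7% of the T cell gate, and Fscn1 in 7.91% of the endothelial gate.

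**Figure D2:**
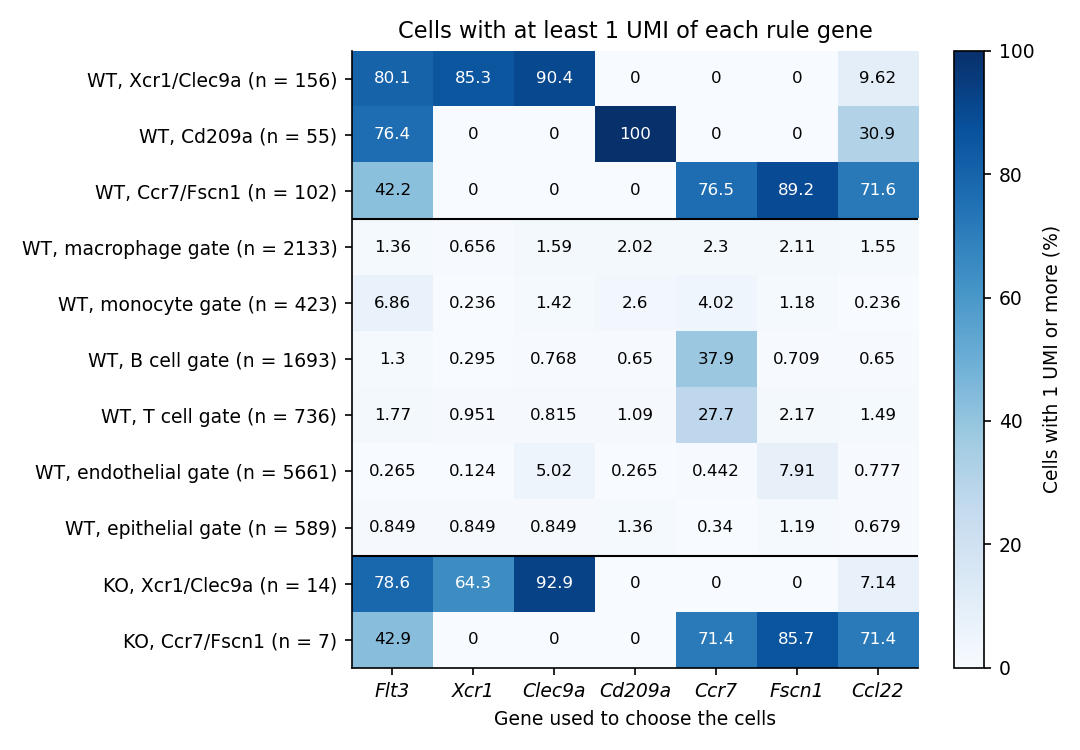
Percent of cells with 1 UMI or more of each of the 7 genes that chose the cells (columns), in the marker subsets and in gates of other cells of the WT library and in the KO subsets (rows, with the number of cells); zeros off the diagonal blocks follow from how the subsets were cut. Outside the dendritic cells the highest values are Ccr7 in B cells (37.9%) and T cells (27.7%).

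The 3 subsets differed in genes that the rule did not use, counted cell by cell. Of 16 listed cDC1 genes the median Xcr1/Clec9a cell of the WT library held 12, the median Cd209a cell 4 and the median Ccr7/Fscn1 cell 2. Of 14 listed cDC2 genes the medians were 1, 5 and 1, and of 32 listed genes of mature dendritic cells 4, 6 and 16. Taking in each cell the list of which the largest part was detected, the cDC1 list led in 152 of 156 Xcr1/Clec9a cells (97.4%), the cDC2 list in 40 of 55 Cd209a cells (72.7%) and the mature list in 95 of 102 Ccr7/Fscn1 cells (93.1%). Of the KO cells with 1 marker set, the cDC1 list led in 14 of 14 Xcr1/Clec9a cells and the mature list in 6 of 7 Ccr7/Fscn1 cells. The leading list and the marker set thus matched in most cells, least often in the Cd209a cells, of which 10 (18.2%) led with the cDC1 list. Few genes could make a list lead. Of the 102 WT Ccr7/Fscn1 cells 37 held 10 or fewer mature genes, with a median of 5 genes and 892 UMIs. Of the 7 KO cells 3 held 1 to 4 mature genes.

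Among cells with 2 marker sets, those with Ccr7/Fscn1 held genes of both lists. The 10 WT cells with Xcr1/Clec9a and Ccr7/Fscn1 had a median of 8.5 cDC1 and 12.5 mature genes, and the 12 with Cd209a and Ccr7/Fscn1 had 5 cDC2 and 13 mature genes. The 9 with Xcr1/Clec9a and Cd209a had 2 cDC1 and 5 cDC2 genes, fewer cDC1 genes than the Cd209a cells. Scrublet, a caller that scores each barcode against simulated doublets, marked 8 of the 346 WT and 0 of the 23 KO dendritic cells, and the part of doublets in the mixed cells was not tested.

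The Ccr7/Fscn1 cells spread widely in the number of mature genes detected, and depth moved with it. In the WT library 65 of 102 held over 10 of the 32 mature genes, with a median of 20 genes and 4484 UMIs, and 37 held 10 or fewer, with a median of 5 genes and 892 UMIs. Of the first, 58 of 65 had 3 or more of the 11 shared dendritic cell genes, and of the second 3 of 37. In the KO library 4 of 7 cells held over 10 mature genes, at a median of 6880 UMIs, and 3 held 10 or fewer, at 678 UMIs. The split was drawn after the values were seen, and it left 37 WT Ccr7/Fscn1 cells whose place rested on few molecules. Flt3 was found in 6 of these 37 and in 37 of the 65, and 2 or more UMIs of the macrophage list in 9 and 13, of the endothelial list in 6 and 11 and of the mesenchymal list in 5 and 2. Their part in the subset's levels was not tested.

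**Figure D3:**
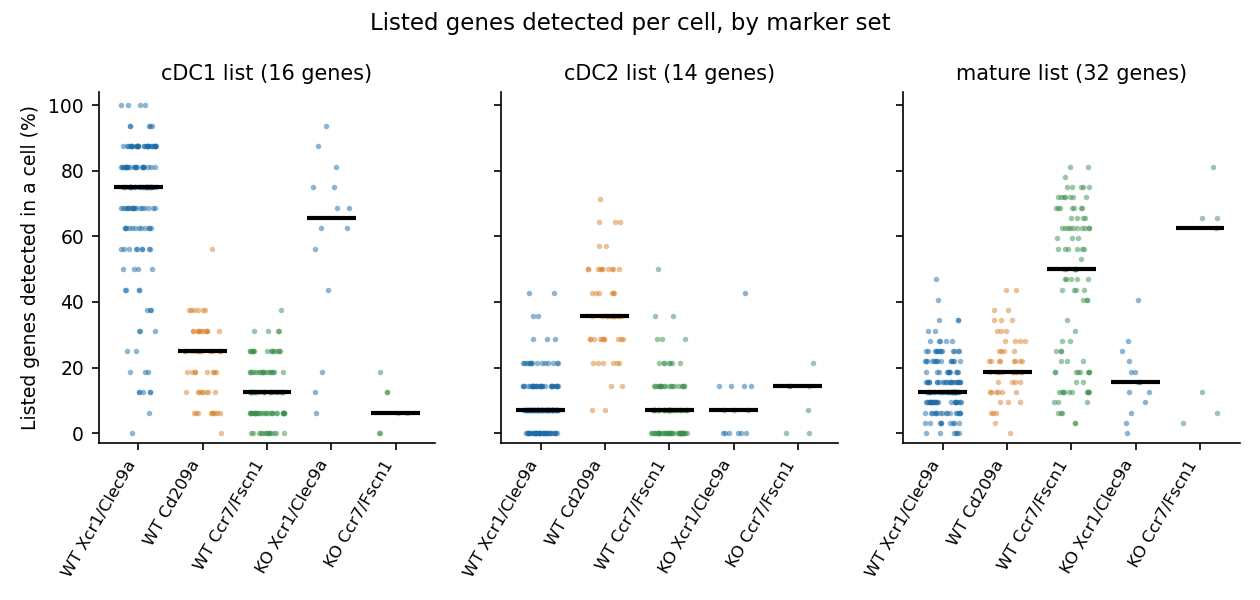
Percent of the genes of 3 lists (cDC1, cDC2 and mature; none used by the rule) detected in each cell (points), by library and marker subset; black lines are medians. Each list was detected most in its own subset, and the WT Ccr7/Fscn1 cells spread from 1 to 26 of 32 mature genes.

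The Xcr1/Clec9a cells of the WT library carried the cDC1 genes. Over summed UMIs, 15 of the 16 listed cDC1 genes were higher in them than in the other 2 subsets together by a factor of 2 or more (median log2 ratio 3.87), against 9.33% of the 7644 genes with 20 UMIs or more (median 0.00). The exception was Batf3, the partner of IRF8 in cDC1, at 171 CPM in Xcr1/Clec9a, 46.6 in Cd209a and 169 in Ccr7/Fscn1 cells. Some RNA of lung epithelium was higher there too. Of 5 measured genes of alveolar type 2 cells 3 were higher by the same factor and 0 lower. Sftpb gave 51 UMIs (34 in 1 cell) against 1, and Scgb1a1 gave 1946 UMIs against 128, 1847 of them in 1 cell. The alveolar type 2 list summed to 653 CPM, against 749 in Cd209a and 494 in Ccr7/Fscn1 cells. Of 4 measured genes of other epithelium 1 was higher and 1 lower (median log2 ratio -0.40). The part of epithelial RNA in these levels was not tested. Cells were cut from 1 library, so these ratios describe the subsets and are no test of them.

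Among the transcription factors, Irf8, which sets the cDC1 fate, was at 1200.0 CPM in Xcr1/Clec9a, 37.9 in Cd209a and 270.5 in Ccr7/Fscn1 cells of the WT library (log2 ratio over the other 2 2.96, 95% counting interval 2.67 to 3.26). In the KO library Irf8 was at 1036 CPM in Xcr1/Clec9a and 221 in Ccr7/Fscn1 cells. Irf8 was thus higher in Xcr1/Clec9a than in Ccr7/Fscn1 cells in both libraries. Id2, which restrains other lineage factors in dendritic cells, differed less, at 891, 251 and 593 CPM in WT. Its log2 ratio over the other 2 subsets was 1.08 as reported and turned to -0.11 after thinning.

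Among lists of function, 5 of 10 measured genes of pattern recognition and uptake were higher and 5 lower in Xcr1/Clec9a cells by a factor of 2 or more, against 9.33% and 14.0% of all genes, and of 13 genes of the MHC class I pathway 1 was higher and 0 lower. Of 17 NF-kB genes 16, of 8 costimulatory genes 6 and of 11 inhibitory and tolerance genes 8 were lower there, and of 12 cell cycle genes 4 were higher. Several cDC1 genes follow by their role. Wdfy4, which cDC1 need to cross-present, was at 1907, 568 and 87.3 CPM in WT Xcr1/Clec9a, Cd209a and Ccr7/Fscn1 cells, and at 1047 and 63.1 CPM in KO Xcr1/Clec9a and Ccr7/Fscn1 cells. Tlr3, the endosomal sensor of double-stranded RNA, gave 174 UMIs in Xcr1/Clec9a cells and 0 in the other 2 subsets, a log2 ratio of at least 5.26 against a floor of 3 UMIs over the group. Rab7b, a GTPase of endosomal transport, gave 268 UMIs against 1. Cadm1, an adhesion molecule used to sort cDC1, was at 497, 8.75 and 23.3 CPM. Itgae, the integrin CD103, was at 501, 49.6 and 20.4 CPM, and the lysosomal enzyme Ppt1 had a log2 ratio of 4.22. Havcr2, the inhibitory receptor TIM-3 and not on the cDC1 list, was likewise highest there, at 313 against 90.4 and 8.73 CPM.

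Most of these genes were low in the Ccr7/Fscn1 cells. Naaa, a lysosomal amidase, gave 4 UMIs in the 102 WT Ccr7/Fscn1 cells against 1241 in the other 2 subsets (log2 ratio -6.27), and 14 of the 16 cDC1 genes were lower in Ccr7/Fscn1 cells by a factor of 2 or more, against 23.2% of all genes. Batf3 and Id2 were the 2 cDC1 genes that were not.

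**Figure D4:**
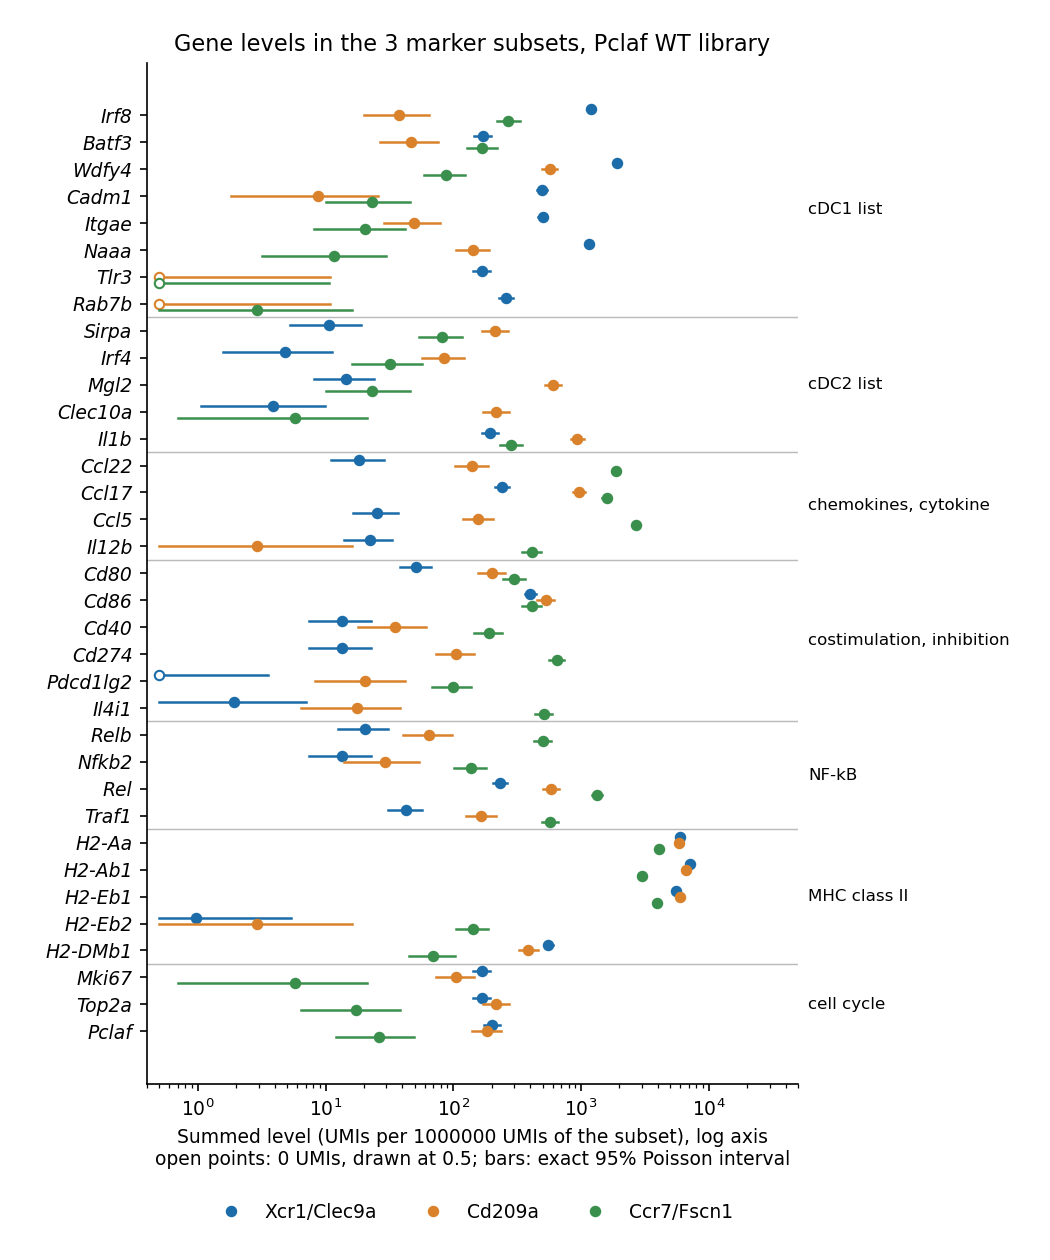
Summed level (x axis, UMIs per 1000000 UMIs of the subset, log scale) of listed genes in the Xcr1/Clec9a (blue, 156 cells), Cd209a (orange, 55 cells) and Ccr7/Fscn1 (green, 102 cells) cells of the Pclaf WT library; bars are exact 95% Poisson intervals, and open points stand for 0 UMIs, drawn at 0.5. The cDC1 genes are highest in blue, the cDC2 genes in orange, and the chemokines, PD-L1 (Cd274) and NF-kB genes in green, while H2-Eb2 and H2-DMb1 lie on opposite sides.

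The 55 WT Cd209a cells carried the cDC2 genes. Of 13 measured cDC2 genes 11 were higher in them than in the other 2 subsets by a factor of 2 or more (median log2 ratio 2.91), against 9.43% of all genes. Sirpa, the receptor for the CD47 signal, was at 213 CPM in Cd209a cells against 10.6 in Xcr1/Clec9a and 81.4 in Ccr7/Fscn1 cells. Irf4, the cDC2 factor, was at 84.5 against 4.82 and 32.0 CPM. Both were lowest in Xcr1/Clec9a cells and in between in Ccr7/Fscn1 cells.

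The lectins Mgl2 and Clec10a, which bind galactose-type sugars, were at 603 and 216 CPM in Cd209a cells, with log2 ratios of 5.18 and 5.63. Mrc1, the mannose receptor, gave 85 UMIs in Cd209a cells and 7 in the other 2 subsets. Clec4n, the fungal receptor dectin-2, had a log2 ratio of 4.75. Il1b, an inflammatory cytokine, was at 939 CPM against 195 and 285, and Il1r2, its decoy receptor, was at 659 against 51.1 and 116. Plet1, although listed with cDC2, was at 210.3 CPM in Xcr1/Clec9a, 149 in Cd209a and 5.82 in Ccr7/Fscn1 cells.

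Genes of monocytes were raised in the same cells. Of 8 measured genes of the monocyte list 6 were higher in Cd209a cells by a factor of 2 or more, against 9.43% of all genes, among them Ms4a6c at 408 CPM against 71.4 and 78.5. Lyz2, lysozyme, was not among the 6, at 1044 against 524 and 811 CPM (log2 ratio 0.81), and its ratio turned to -0.28 with none of the 6 excluded genes used and to -0.49 after thinning. In the monocyte gate Ms4a6c was at 660.2 and Lyz2 at 13822 CPM. Fcgr1, a defining gene of monocyte-derived cells and macrophages, was at 14.6 CPM in Cd209a cells against 110.2 in the macrophage gate. Zbtb46, the factor of conventional dendritic cells, was at 90.4 CPM in Cd209a cells, 177 in Xcr1/Clec9a and 154 in Ccr7/Fscn1 cells, and at 7.14 in the macrophage and 4.26 in the monocyte gate. Haemoglobin RNA was also highest in the Cd209a cells, 458 CPM over 4 genes against 79.1 and 52.4. Of 13 immediate early and dissociation genes 6 were higher in Cd209a cells, against 9.43%, the list summing to 6011 CPM against 3500 in Xcr1/Clec9a and 3202 in Ccr7/Fscn1 cells, and 4 nuclear noncoding RNAs, mostly Malat1, summed to 4163 against 9568 and 11986 CPM. The part of monocyte-derived cells, of free RNA and of cell handling in these values was not tested.

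Summed over the 102 WT Ccr7/Fscn1 cells, of which 37 held 10 or fewer mature genes, the genes of maturation were high. Of 31 measured mature genes 29 were higher in them than in the other 2 subsets by a factor of 2 or more (median log2 ratio 4.20), against 12.4% of all genes, while 23.2% of all genes were lower by that factor and the median of all genes was -0.23. The 2 that were not were Cd83 and Cd86. RNA of some other cell types was also higher there: the 9 mesenchymal genes summed to 1102 CPM against 59.8 in Xcr1/Clec9a and 204 in Cd209a cells, the 10 T and NK cell genes to 387 against 62.7 and 81.6, and the 7 B cell genes to 236 against 85.9 and 178. Much of it sat in few cells, 274 of the 475 collagen and Dcn UMIs of all WT dendritic cells and all 70 UMIs of Ccl24 being in 1 cell each, and its part in the counts was not tested. Lists of alveolar type 2, other epithelial and red blood cell genes went the other way. There 0 genes were higher in Ccr7/Fscn1 cells, and 3 of 5, 2 of 4 and 3 of 4 measured genes were lower.

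The chemokines that draw T cells were the most abundant of their kind there. Ccl5, a chemokine for activated T cells, was at 2714 CPM in Ccr7/Fscn1, 25.1 in Xcr1/Clec9a and 157 in Cd209a cells of the WT library, and at 3815 and 11.02 CPM in KO Ccr7/Fscn1 and Xcr1/Clec9a cells. Ccl17, a ligand of CCR4, was at 1585, 240.2 and 962 CPM in WT and at 694 and 617 in KO. Ccl5 was thus far higher in Ccr7/Fscn1 cells in both libraries, although most of its KO UMIs came from 1 cell. Ccl17 was shared with the Cd209a cells in WT and differed little between the KO subsets, in which 54 of the 56 Xcr1/Clec9a UMIs came from 1 cell. Ccl22, the other CCR4 ligand and a gene of the rule, was at 1885, 18.3 and 139.9 CPM in WT. Ccl22 and Ccl17 were found together in 52 of 102 WT Ccr7/Fscn1 cells (51.0%), and Ccl22 and Ccl5 in 40 (39.2%). Il12b, a subunit of IL-12 and IL-23, was at 410.1 CPM but in 19 of 102 cells, 39 of its 141 UMIs in 1 cell.

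Several costimulatory and inhibitory genes were raised together. Of 8 measured costimulatory genes 5, and of 11 measured inhibitory and tolerance genes 7, were higher in Ccr7/Fscn1 cells by a factor of 2 or more, against 12.4% of all genes. These counts were 2 of 5 and 3 of 5 with at least 100 UMIs per gene, and 1 of 3 and 3 of 4 after thinning. Cd274, which encodes PD-L1, was at 649 CPM in Ccr7/Fscn1, 13.5 in Xcr1/Clec9a and 105 in Cd209a cells of the WT library, and at 347 and 22.04 CPM in KO Ccr7/Fscn1 and Xcr1/Clec9a cells. Cd40 was at 189, 13.5 and 35.0 CPM, and Cd80 at 299.6, 51.1 and 201.2. Cd86, which shares its receptors with CD80, differed little, at 410.1, 401 and 528 CPM (log2 ratio -0.08, -0.35 to 0.19). PD-L1 and CD80 RNA met in the same cell in 27 of 102 Ccr7/Fscn1 cells (26.5%). Il4i1, an enzyme that breaks down amino acids and restrains T cells, gave 175 UMIs against 8, Socs2, a brake on cytokine signals, had a log2 ratio of 5.17, and Tnfsf4, the OX40 ligand, gave 36 UMIs against 0 (at least 5.59). Aldh1a2, which makes retinoic acid, gave 16 UMIs against 2.

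NF-kB genes followed the same pattern. Of 17 listed family members and feedback genes 11 were higher in Ccr7/Fscn1 cells by a factor of 2 or more, against 12.4% of all genes. Relb, the subunit of the alternative NF-kB pathway that dendritic cells need to mature, was at 500.3 CPM in Ccr7/Fscn1, 20.3 in Xcr1/Clec9a and 64.1 in Cd209a cells in WT, and at 409.9 and 11.02 CPM in KO Ccr7/Fscn1 and Xcr1/Clec9a cells. Nfkb2, its partner, was at 137, 13.5 and 29.2 CPM, and Map3k14, the kinase that processes it, at 596, 114 and 222. Rel was at 1332, 233 and 580.2 CPM. The signal adapters Traf1 and Birc2 had log2 ratios of 2.96 and 3.41. The inhibitor Nfkbia was higher in both Ccr7/Fscn1 and Cd209a cells, at 448 and 373 CPM, than in Xcr1/Clec9a cells, at 138. Of 10 survival genes 5 were higher, among them Bcl2a1b (2.36 log2), and of 8 measured interferon-stimulated genes 7 were, against the same 12.4%, though 1 of 5 was with at least 3 rule genes.

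The promoters of NF-kB genes are shown because these genes were higher together in Ccr7/Fscn1 cells. RefSeq promoter sequences were searched in the 250 bases before each gene's start for GGNNTTTCC, 9 letters of the kappaB element, on both strands (GGAAANNCC on the other), which 4.93% of 32851 mouse promoters held and 6 of the 14 listed NF-kB genes with a promoter sequence did. The percentage is per promoter sequence, whereas a gene was counted if any of its sequences matched, so these are unlike measures. The letters were also shortened from a longer form after its matches had been seen. Those of Nfkb2, Rel and Nfkbia follow, on GRCm38.p6, 5′ to 3′ along the gene, with each match in capitals: Nfkb2 at chr19:46304487-46304736 on the plus strand, Rel at chr11:23770970-23771219 on the minus strand and Nfkbia at chr12:55492648-55492897 on the minus strand.
Nfkb2: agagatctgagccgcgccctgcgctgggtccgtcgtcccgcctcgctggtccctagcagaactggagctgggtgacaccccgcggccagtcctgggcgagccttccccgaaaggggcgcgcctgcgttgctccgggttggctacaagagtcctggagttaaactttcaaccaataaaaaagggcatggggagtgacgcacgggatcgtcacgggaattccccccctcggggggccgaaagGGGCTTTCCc
Rel: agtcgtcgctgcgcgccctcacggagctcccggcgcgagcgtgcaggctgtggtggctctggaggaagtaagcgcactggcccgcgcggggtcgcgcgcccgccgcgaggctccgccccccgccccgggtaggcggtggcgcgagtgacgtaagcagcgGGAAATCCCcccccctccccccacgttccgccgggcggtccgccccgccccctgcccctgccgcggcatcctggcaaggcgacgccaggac
Nfkbia: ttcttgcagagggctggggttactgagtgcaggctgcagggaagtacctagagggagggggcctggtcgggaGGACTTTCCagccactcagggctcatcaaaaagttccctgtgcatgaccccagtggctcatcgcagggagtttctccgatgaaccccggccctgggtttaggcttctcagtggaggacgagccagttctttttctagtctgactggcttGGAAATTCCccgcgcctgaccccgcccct
The match began 10 bases before this start of Nfkb2 and 91 before that of Rel, and the matches in Nfkbia began 178 and 29 bases before its start. Of 22 mature genes with a promoter sequence 1, Nfkb2, held the letters. A match describes the sequence and shows neither binding nor use.

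Of 14 measured genes of the MHC class II pathway 2 were higher and 5 lower in Ccr7/Fscn1 cells by a factor of 2 or more, beside 12.4% and 23.2% of all genes, so the list as a whole stood near the background. The chains H2-Aa and H2-Eb1 were at 4072 and 3906 CPM in Ccr7/Fscn1 cells, at 5951 and 5557 in Xcr1/Clec9a and at 5839 and 5953 in Cd209a cells (log2 ratios -0.54 and -0.53). H2-DMa and H2-DMb1, which exchange peptides on class II, were lower, with log2 ratios of -1.97 and -2.88, as was March1, the ligase that removes class II from the surface (-3.30). H2-Eb2, another E beta gene beside H2-Eb1, gave 49 UMIs in 32 of 102 Ccr7/Fscn1 cells and 2 in the other 2 subsets (log2 ratio 6.62, 4.69 to 9.70). In the KO library H2-Eb2 gave 9 UMIs, all in 3 Ccr7/Fscn1 cells. H2-Eb1 and H2-Eb2 are near-identical in parts, so how reads were shared between them is uncertain.

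The promoters of these 3 chains are shown because H2-Eb2 stood apart from H2-Aa and H2-Eb1. Each held the Y box letters CTGATTGG (CCAATCAG on the other strand), a part of the class II promoter bound by NF-Y, which 3.83% of 32851 promoters held and 4 of 11 genes of the pathway with a promoter sequence did. Here too the percentage is per promoter sequence and the count per gene. The match is in capitals and lay on the strand of the gene, on GRCm38.p6, for H2-Aa at chr17:34287824-34288073 on the minus strand, H2-Eb1 at chr17:34305617-34305866 on the plus strand and H2-Eb2 at chr17:34325425-34325674 on the plus strand.
H2-Aa: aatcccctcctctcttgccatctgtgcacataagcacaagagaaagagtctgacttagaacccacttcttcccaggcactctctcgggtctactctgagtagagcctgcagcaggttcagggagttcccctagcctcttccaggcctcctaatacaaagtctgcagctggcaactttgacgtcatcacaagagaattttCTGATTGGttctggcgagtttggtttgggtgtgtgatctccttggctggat
H2-Eb1: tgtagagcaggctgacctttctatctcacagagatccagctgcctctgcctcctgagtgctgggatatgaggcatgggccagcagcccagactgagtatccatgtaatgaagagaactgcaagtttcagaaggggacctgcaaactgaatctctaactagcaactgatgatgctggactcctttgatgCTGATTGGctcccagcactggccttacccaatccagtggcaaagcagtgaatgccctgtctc
H2-Eb2: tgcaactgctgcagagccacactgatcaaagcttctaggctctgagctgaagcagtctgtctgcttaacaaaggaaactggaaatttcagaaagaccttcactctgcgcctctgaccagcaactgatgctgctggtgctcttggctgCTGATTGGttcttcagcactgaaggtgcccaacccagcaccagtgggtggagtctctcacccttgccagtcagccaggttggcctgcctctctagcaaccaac
The match began 51 bases before the start in H2-Aa, 62 in H2-Eb1 and 103 in H2-Eb2, so the letters were present whether the gene was high in every subset or in 1.

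Further genes stood high in Ccr7/Fscn1 cells, some of them on the lists and some not. Fabp5, a fatty acid carrier, gave 1387 UMIs in 75 of 102 cells against 103 in the other 2 subsets (log2 ratio 5.76). Mreg, melanoregulin, gave 271 UMIs in 58 cells against 4. Cacnb3, a calcium channel subunit, gave 121 against 3, Apol7c, an apolipoprotein L of dendritic cells, 107 in 27 cells against 0, and Eno3, an enolase, 95 in 42 cells against 6. Tbc1d4 was at 1858 CPM in WT Ccr7/Fscn1 cells against 198 in Xcr1/Clec9a and 213 in Cd209a cells, and at 1545 and 176 CPM in the KO Ccr7/Fscn1 and Xcr1/Clec9a cells. The receptors Ly75 (DEC-205), Il7r and Il2ra had log2 ratios of 3.03, 2.90 and 4.93. Ly75 was the exception on its list, since of 10 measured genes of pattern recognition and uptake 1 was higher and 8 lower in these cells, against 12.4% and 23.2% of all genes. Ccr2, the receptor that brings cells into inflamed tissue, was lower, at 37.8 against 289 and 312 CPM.

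Cell cycle genes were low in the Ccr7/Fscn1 cells. Of 12 listed genes 11 were lower than in the other 2 subsets by a factor of 2 or more (median log2 ratio -2.82), against 23.2% of all genes, and Tubb5, a tubulin, was the exception. Mki67 gave 2 UMIs in Ccr7/Fscn1 cells and 210 in the others, Top2a 6 and 247, and Pclaf 9 and 272. Cells with a UMI of Mki67 or Top2a made up 30.8% of Xcr1/Clec9a cells (48 of 156), 30.9% of Cd209a cells (17 of 55) and 4.90% of Ccr7/Fscn1 cells (5 of 102), and after thinning to 1000 UMIs 15.5%, 12.7% and 1.25%. In the KO library 5 of 14 Xcr1/Clec9a cells and 0 of 7 Ccr7/Fscn1 cells had such a UMI. The same share was 13.3% in the WT macrophage gate and 3.50% in the WT endothelial gate, at median depths of 4040 and 2260 UMIs. Proliferation RNA was thus found in cells with Xcr1, Clec9a or Cd209a in WT and in 5 of 102 cells with Ccr7 or Fscn1 alone, at a lower depth. Of the 31 mixed WT cells 9 had such a UMI (29.0%).

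In the KO library Ccr7/Fscn1 and Xcr1/Clec9a cells were compared from 7 and 14 cells. Of 820 genes with 20 UMIs or more in the comparison, 15.5% were higher and 22.7% lower in Ccr7/Fscn1 than in Xcr1/Clec9a cells by a factor of 2 or more. Of 9 measured cDC1 genes 7 were lower, and of 10 measured mature genes 6 were higher (Ccl5, Samsn1, Tbc1d4, Tmem123, Traf1 and Zmynd15) and 2 lower (Cd86 and Nr4a3). Tmem123 was at 1324 CPM in KO Ccr7/Fscn1 and 88.2 in KO Xcr1/Clec9a cells (42 and 8 UMIs), Samsn1 at 1261 and 99.2 (40 and 9), Cd86 at 126 and 309 (4 and 28) and Nr4a3 at 0 and 220.4 (0 and 20). In WT Ccr7/Fscn1 cells Tmem123 and Samsn1 were at 1623 and 1053 CPM. The other mature genes gave fewer than 20 UMIs in the KO comparison, and so did all costimulatory genes but Cd86 and all inhibitory genes but Havcr2, which gave 1 UMI against 21.

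Against the macrophage gate of the same library (2133 cells), which also presents antigen, the WT dendritic cells were higher in 10 of 12 shared dendritic cell genes (the 11 above and Traf1) by a factor of 2 or more, against 8.32% of 12374 genes, and lower in 10 of 11 measured macrophage genes, against 18.0%. Zbtb46 was at 152 and 7.14 CPM, Dpp4 at 209 and 17.6, Kit at 119.6 and 10.8, and Apoe, the most abundant macrophage gene on the list, at 222 and 11080.5. Against the monocyte gate (423 cells) 9 of the 12 shared genes were higher, against 9.51% of 9926 genes, and 10 of 10 measured monocyte genes were lower, against 13.6%. Cd74, the invariant chain of MHC class II, was at 11333 CPM in dendritic cells, 7427 in macrophages and 1855 in monocytes, and since 1 UMI of Cd74 or H2-Ab1 was asked of the dendritic cells its level is a description only. Genes that set the gates themselves (C1qa, C1qb, Ly6c2, Plac8 and Ccr2) were read as part of the rule and not counted as findings. The dendritic cells were chosen without C1qa and Ly6c2, and the macrophage and monocyte gates with them. The counts of lower macrophage and monocyte genes therefore follow in part from that choice and are descriptions only.

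Between genotypes, over all dendritic cells, 6.67% of 8147 genes with 20 UMIs or more were higher and 19.4% lower in KO than in WT by a factor of 2 or more, with a median log2 ratio of -0.18. The KO cells summed to 131877 UMIs against 1922748 in WT. A gene near 20 UMIs therefore had few KO UMIs and could pass a factor of 2 by counting error alone. Of 16 cDC1 genes 0 were higher and 1 lower, of 31 mature genes 0 were higher and 3 lower, and of 12 shared genes 0 were higher and 2 lower. Of 13 cDC2 genes 2 were higher and 6 lower. Over all dendritic cells the shares of cDC1 and mature genes that were lower were below the background share, and that of the cDC2 genes, with no KO cell in the Cd209a subset, was above it. These counts depended on the settings. With a minimum of 1 UMI per gene 4542 of 14909 genes were higher in KO, and with 100 UMIs 51 of 3215 were higher and 314 lower. Mature genes lower in KO were 8 of 32 with none of the 6 excluded genes used, 8 of 30 with 12 genes required at 0, 7 of 31 with Epcam alone not used, 5 of 31 with TMM factors and 1 of 31 without the cells rich in RNA of other cells. The cDC1 genes lower in KO were 4 of 16 with at least 3 rule genes and 4 of 12 after thinning, where the cDC2 genes lower were 2 of 8 and 0 of 4. Within the subsets the counts differed. In Xcr1/Clec9a cells 6 of 16 measured mature genes were higher in KO and 2 lower, against 6.34% and 20.1% of 6100 genes. In Ccr7/Fscn1 cells 0 of 31 mature genes were higher and 7 lower, against 9.34% and 22.9% of 2859 genes, and 5 of 8 costimulatory genes and 5 of 7 chemokine ligands were lower there, from 7 KO cells. Of 5 measured interferon-stimulated genes 4 were higher and 0 lower in the same KO cells. These subset counts rest on few KO molecules, 90727 UMIs against 1036647 in Xcr1/Clec9a and 31718 against 343825 in Ccr7/Fscn1 cells. The 14 KO Xcr1/Clec9a cells held a median of 5 mature genes and the highest held 13. Of the 7 KO Ccr7/Fscn1 cells 3 held 4 or fewer. The part of single cells in these counts was not tested.

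Irf8 was at 736 CPM in WT and 773 in KO dendritic cells (log2 ratio 0.07, -0.23 to 0.36). H2-Aa was at 5566 and 5376 CPM (-0.05, -0.16 to 0.06), and Tmem123 at 355 and 379. For these genes the counting intervals included 0. Itgae was lower in KO, at 129 against 299 CPM (-1.21, -2.001 to -0.52), Wdfy4 at 751 against 1218 (-0.70, but 0.37 after thinning), and Cd86 at 243 against 461 (-0.93). Ccl5 was at 925 CPM in KO against 578 (0.68), but its 122 KO UMIs lay in 5 cells, 82 of them in 1, and as a mean over cells of log-normalized values the difference was -0.034.

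The lowest genes of the KO cells included genes that marked the WT Cd209a subset. Mgl2 gave 0 UMIs in KO and 301 in WT, a log2 ratio of -2.78 or below against a floor of 3 UMIs, and Clec10a gave 0 and 89. Ccl4, an inflammatory chemokine, gave 1 UMI in KO and 536 in 86 WT cells, and Il1r2 gave 5 and 389. After thinning, from 7 KO cells, the ratios of Ccl4 and Il1r2 turned to 0.22 and 0.36. Qpct, glutaminyl cyclase, gave 0 and 144. Gzma, a protease of cytotoxic lymphocytes, gave 0 and 108, of which 47 were in 1 cell. After the same thinning the ratios of Clec10a, Qpct and Gzma were 1.80, 1.15 and 0.91. These 3 genes were at 0 UMIs in KO, and the sign came from the 0.5 UMIs added. Red blood cell RNA was lower too, 2 UMIs of 4 haemoglobin genes in KO (15.2 CPM) against 266 in WT (138 CPM).

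Most of the 10 highest genes of the KO cells were genes of lung epithelium. Of the 10 genes with the largest KO over WT ratio, Scgb3a2, Scgb1a1, Cbr2, Wfdc2, Cyp2f2, Sftpb and Sftpa1 are known from club or alveolar type 2 cells. Scgb3a2 and Scgb1a1 encode the secretoglobins of club cells. Scgb1a1 gave 5049 UMIs in KO and 2101 in WT dendritic cells, of which 4937 and 1847 lay in 1 cell each, and Scgb3a2 gave 219, with 214 in 1 cell, against 33. Of 6 measured genes of alveolar type 2 cells 5 were higher in KO by a factor of 2 or more, against 6.67% of all genes, the list summing to 2684 CPM against 633, and Sftpc, their surfactant gene, had a median of 5 UMIs per KO and 0 per WT dendritic cell. The other listed epithelial genes did not follow: of 4 measured 1, Scgb1a1, was higher and 1 lower (median log2 ratio -0.54), and Scgb1a1 turned to -1.07 with at least 3 rule genes. The median of Sftpc was also 6 UMIs in the KO macrophage and monocyte gates, 3.5 in B cells and 5 in T cells and endothelium. In each of these gates of the WT library it was 0. RNA of alveolar type 2 cells was thus higher in KO dendritic cells without Epcam, in a library where the epithelial gate held 40.3% of kept barcodes. Its part in the other differences was not tested.

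**Figure D5:**
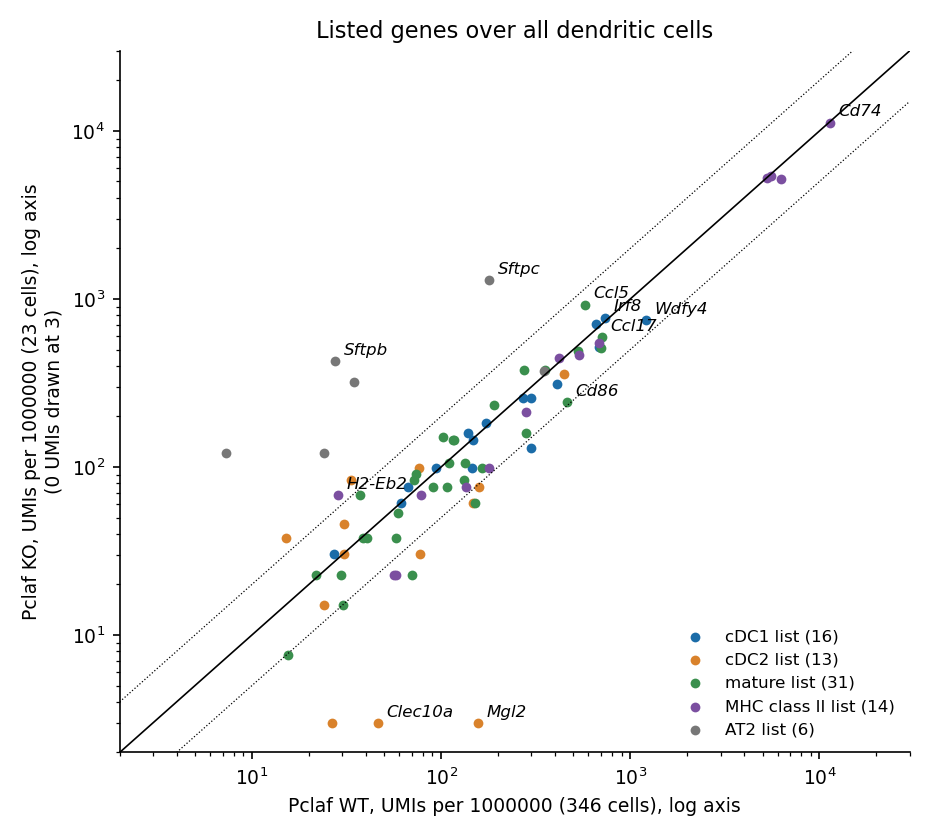
Summed level over all dendritic cells in the Pclaf KO library (y axis, 23 cells) against the Pclaf WT library (x axis, 346 cells), in UMIs per 1000000 on log axes, for genes of 5 lists with 20 UMIs or more in the comparison; the solid line marks equal levels, dotted lines a factor of 2, and genes with 0 KO UMIs are drawn at 3. Most cDC1, mature and MHC class II genes lie between the dotted lines, Mgl2 and Clec10a lie at 0 in KO, and Sftpc and Sftpb lie above.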

How the data were processed

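The deposited files were 2 UMI count matrices (31053 genes), 1 for the Pclaf WT library (30669 barcodes, 98171818 UMIs) and 1 for the Pclaf KO library (17172 barcodes, 111267567 UMIs). The authors made these counts with Cell Ranger, version 3.1.0 per the submitters' processing notes and 5.0.0 per the matrix header, and STAR, on GRCm38 (mm10). No cell annotation was used here. The members and the 33 gene lists were chosen with earlier results of these data known. Barcodes were kept with more than 200 and fewer than 5000 genes and under 20% mitochondrial UMIs.

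UMIs were summed over cells and given per 1000000 UMIs (CPM), with exact Poisson intervals, exact conditional intervals for ratios of 2 sums and exact binomial (Clopper-Pearson) intervals for shares, all at 95% and for counting error only. Where a sum was 0, 0.5 UMIs were added to both and a bound at 3 UMIs over the group was given. Lists were counted over genes with at least 20 UMIs in a comparison, past a factor of 2. Named genes were the 7 of the rule, list members, Pclaf, and the 10 highest and 10 lowest genes with at least 50 UMIs in each comparison, leaving out rule, mitochondrial, ribosomal protein, Gm and Rik genes. Ifi30 and Clec7a were not analysed here, and a few further items are not reported here. No doublets were removed; Scrublet (scanpy 1.11.5) marked 0 cells at its default expected rate of 5%, so a rate that grows with the number of cells (24.1% in WT, 12.5% in KO) was set after that result was seen, and 7.76% and 2.70% of kept cells were then marked. Thinning drew 1000 UMIs per cell with a fixed seed, leaving out shallower cells. Ratios and intervals were tested on simulated data. Python 3.11.15, numpy 2.4.6, scipy 1.17.1, pandas 2.3.3, matplotlib 3.10.9 and, for TMM factors, edgeR 4.0.16 in R 4.3.3 were used. Promoters came from RefSeq (GRCm38.p6), and the kappaB letters searched were shortened from a longer form after the matches of that form had been seen.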

Additional observations from a re-analysis of the deposited data

Results flagged for a closer look

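For Nr4a3, an immediate early nuclear receptor on the mature list, the 2 libraries went opposite ways. Its log2 ratio of Ccr7/Fscn1 over Xcr1/Clec9a cells was 3.52 in WT and -3.84 in KO, where 7 Ccr7/Fscn1 cells held 0 UMIs and 14 Xcr1/Clec9a cells held 20 (-1.22 or below against a floor of 3 UMIs). It was the single such gene among 98 listed genes compared, and the difference was not tested.

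For 5 of 149 listed genes KO over WT went opposite ways in Xcr1/Clec9a and in Ccr7/Fscn1 cells, and these differences were not tested either. The log2 ratios were 1.36 and -1.19 for the chemokine Ccl17, 1.21 and -1.80 for the heat shock gene Hspa1a, and 1.14 and -2.18 for the cytokine Il1b. They were 1.41 and -2.36 for Lyz2, and 1.79 and -5.54 for Nr4a3, whose 0 UMIs in KO Ccr7/Fscn1 cells against 251 in WT give -2.95 or below at the floor. All rest on few KO molecules: Ccl17 gave 56 UMIs in KO Xcr1/Clec9a cells, 54 of them in 1 cell, and Lyz2 126, 65 of them in 1 cell, while Hspa1a, Il1b and Lyz2 gave 3, 2 and 5 UMIs in KO Ccr7/Fscn1 cells.

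Cells that the rule left out for Epcam alone held dendritic cell RNA. Of 121 such WT cells 117 had 3 or more of the 11 shared dendritic cell genes (96.7%), and of 12 such KO cells 11 had (91.7%), against 2.55% of the WT and 0.858% of the KO epithelial gate. By marker set the WT cells were 54 Xcr1/Clec9a, 42 Cd209a, 13 Ccr7/Fscn1, 9 mixed and 3 with none, and the KO cells 6, 2, 3 and 1 mixed. Epcam was at 1 UMI in 66 and 7 of them, and their median depths were 6748 and 10691 UMIs. What their Epcam RNA came from was not tested. Cells left out for other genes held such RNA too: 78.0% of the WT cells left out for C1qa alone, 77.8% for Cd3e, 64.1% for Cd79a, 78.7% for Ly6c2, 66.4% for Cdh5 and 85.2% of the 230 left out for 2 or more genes had 3 or more of the shared genes.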

How the results depend on the processing

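No paired analysis was possible because each genotype had 1 library, and no replicate could be left out. Over all alternatives 362 of 425 values of shares, gene counts and list counts and 1128 of 1308 gene ratios stayed within the range set for them, and 168 gene ratios changed in size. The ranges for differences in subset shares were wide. An Xcr1/Clec9a difference of -2.22 points with at least 3 rule genes, against 15.8 as reported, was counted as within its range. These totals are therefore no measure of how stable the subset shares were. Ratios whose counting interval included 0 also changed sign under some alternatives: Cd86 in Ccr7/Fscn1 cells and H2-Aa, Irf8, Mki67 and Tmem123 for KO over WT. The cause of the changes below was not tested, except where fewer cells or genes entered. The KO library's 23 cells limit every comparison between genotypes, and TMM factors shifted all ratios of the Cd209a subset by -0.173 (log2), against which the changes in it can be read.

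The difference in the share of dendritic cells (-0.999 points, KO minus WT) became -1.19 with at least 500 genes per cell, -0.532 with at least 3 rule genes, -2.94 with the 6 genes of other cells not used, -0.723 with 12 such genes at 0, -0.704 with cells thinned to 1000 UMIs and -1.32 with Epcam not used, an alternative chosen after seeing the data. The Cd209a share difference (-15.9 points) turned to 0.835 when thinned, from 7 KO cells, and the Xcr1/Clec9a difference (15.8) to -2.22 with at least 3 rule genes, from 10 KO cells. The Ccr7/Fscn1 difference (0.955) lay between -4.96 with 12 genes at 0 and 7.22 with at least 3 rule genes.

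Thinning left fewer molecules and lowered most counts. Genes past a factor of 2 fell to 178 higher and 322 lower for KO over WT (543 and 1584 as reported), to 144 higher in Xcr1/Clec9a (713), 119 in Cd209a (721) and 215 in Ccr7/Fscn1 cells (950), with 182 lower there (1771). Fewer members reached 20 UMIs: higher were 9 of 11 cDC1, 1 of 1 cDC2 and 19 of 21 mature genes in their subsets, 1 of 2 monocyte genes in Cd209a cells and, in Ccr7/Fscn1 cells, 5 of 10 NF-kB, 1 of 3 costimulatory, 3 of 4 inhibitory, 0 of 9 MHC class II, 1 of 4 survival and 0 of 1 interferon-stimulated genes, with 0 of 1 cell cycle genes lower. For KO over WT 4 of 12 cDC1 and 0 of 4 cDC2 genes were lower. Log2 ratios that turned were Batf3 (-0.37) and Id2 (-0.11) in Xcr1/Clec9a and Lyz2 (-0.49) in Cd209a cells, and for KO over WT Ccl4 (0.22), Clec10a (1.80), Gzma (0.91), Il1r2 (0.36), Qpct (1.15) and Wdfy4 (0.37), where Clec10a, Gzma and Qpct were at 0 UMIs in KO and the sign came from the 0.5 UMIs added.

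With at least 3 rule genes, 1168 genes were higher in Xcr1/Clec9a cells, 6 cDC2 genes in the 4 remaining Cd209a cells and 1 of 5 interferon-stimulated genes in Ccr7/Fscn1 cells, 4 cDC1 and 2 cDC2 genes were lower in KO, and Scgb1a1 turned to -1.07 for KO over WT. With the 6 genes not used, 1650 genes were higher and 906 lower in Ccr7/Fscn1 cells, with 1 MHC class II gene higher, 0 cDC1 and 8 mature genes were lower in KO, and Lyz2 turned to -0.28 in Cd209a cells. With 12 genes at 0, 0 cDC1 and 8 mature genes were lower in KO and 4 interferon-stimulated genes higher in Ccr7/Fscn1 cells. Mature genes lower in KO were 7 with Epcam not used (0 cDC1 genes), 5 with TMM factors and 1 without the cells holding over 50 UMIs of other cells' genes, the last also chosen after seeing the data. As a mean over cells of log-normalized values Ccl5 turned to -0.034 (natural log scale) for KO over WT.

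A minimum of 1 UMI per gene gave 4542 genes higher in KO, 1704 in Xcr1/Clec9a, 2783 in Cd209a and 3107 in Ccr7/Fscn1 cells, with 2978 lower there. A minimum of 100 UMIs gave 51 genes higher and 314 lower in KO, 199 higher in Xcr1/Clec9a, 154 in Cd209a and 304 in Ccr7/Fscn1 cells, with 534 lower there, and tested fewer members: 4 of 6 cDC2 and 2 of 4 monocyte genes were higher in Cd209a cells, and in Ccr7/Fscn1 cells 7 of 11 NF-kB, 2 of 5 costimulatory, 3 of 5 inhibitory, 1 of 12 MHC class II, 3 of 7 survival and 1 of 1 interferon-stimulated genes were higher and 6 of 7 cell cycle genes lower.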
